A study of Mus musculus with 12 samples.

Results

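The results concern the probes of an Agilent mouse expression array that lie in the segment of chromosome 17 around the major histocompatibility complex (MHC) but do not carry an MHC name. Members were all probes, controls left out, whose lower coordinate falls from 28 Mb up to 34.3 Mb on chromosome 17 (build mm7). Probes named H2-, Cyp, Hspa1a or Hspa1b in the files were left out. The rule gave 294 of 41174 probes, under 206 different names, and 66 of these names had 2 or more probes. The rule works on the name in the files, so at least 10 members are MHC or cytochrome P450 sequences under another name, such as LOC630499, ENSMUST00000056774 and the pseudogene Cyp4f41-ps. These 10 were found by symbol or description, and members without a description may hold more. Genes of peptide loading such as Tap1 and Tapbp are members too, so the non-MHC label is one of names.

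RNA came from hearts and kidneys of mENT1 knockout mice and of wild type mice, all given as FVB/N. mENT1 is the equilibrative nucleoside transporter made by Slc29a1, whose gene lies 9.41 Mb above the upper end of the segment. Both tissues of both genotypes had 3 arrays, 12 in all, named a, b and c in the titles. The mutant allele, the age of the mice and the number of backcrosses were not given in the sources used here, and the letters do not tie a heart to a kidney of the same mouse. The question was how gene expression differs between knockout and wild type tissue.

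Each value is a log2 signal after the 75th percentile of its array was set to 0, and each change is knockout minus wild type, given ± the standard error (SE) from limma's linear model. Testing in a tissue needed a signal well above background on every array of one or both genotypes, and a probe was called at an adjusted p under 0.05 (limma, Benjamini-Hochberg over all probes tested). Slc29a1 stood at 1.38, 0.59 and 1.53 in knockout hearts against 3.15, 3.23 and 3.36 in wild type hearts. It stood at -1.43, -1.30 and -1.43 in knockout kidneys against 1.51, 1.27 and 1.62 in wild type kidneys. The columns of the authors' deposited table follow the arrays of the other genotype, so its labels would turn every direction round. Directions below are those of the scanner files.

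The arrays also differed in other ways. Knockout hearts lay on slide 3 and wild type hearts on slide 4, so in heart the slide and the genotype cannot be told apart. Slide 2 held 2 knockout and 2 wild type kidneys. Xist, transcribed from an inactive X chromosome, gave a signal on knockout hearts a and b and knockout kidney a and on no other array, that is on 2 of 3 knockout hearts but 1 of 3 knockout kidneys. All 8 heart muscle genes were above background on all 6 hearts, and all 8 kidney tubule genes on all 6 kidneys. Knockout hearts also read higher on lists of genes typical of other tissues, and where this signal came from was not tested. The median of 11 liver genes was -2.19, -2.21 and -1.74 in knockout hearts against -5.0, -6.81 and -7.15 in wild type hearts. Of these genes 9 of the 10 tested were called higher, where 0.405% of all probes were. The median of 16 thymus and lymphocyte genes was -0.53 and 0.07 on knockout hearts a and b, -3.21 on c, and -4.49 to -4.03 in wild type hearts. The median of 9 lung and cilia genes was 0.49 on knockout heart a and at most -5.39 on the other hearts. In bulk tissue, fewer cells of a type and less RNA per cell cannot be told apart.

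The MHC region is one of the most gene-dense and most variable parts of mammalian genomes, and inbred mouse strains carry different versions (haplotypes) of it. Besides the antigen-presenting molecules it holds genes of complement, of the tumour necrosis factor family, of the Ly6 family and many genes with no immune role, such as enzymes, chromatin proteins and splicing factors. On an array of 60-base probes, a signal depends on the amount of transcript and on how well the transcript matches the probe.

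The probe sequences on which the results turn are shown first. They are given because 6 of the 7 gene names with several tested probes and a called one also had an uncalled probe. Given are the middle 30 bases (positions 16 to 45 of 60) as listed in the array files, 5′ to 3′, in lower case throughout since no part is singled out. For Btbd9, Rab11b, Agpat1 and Prr3 the first line is the probe with the largest change. The others are further tested probes under the same updated gene name. A_52_P389478 and A_52_P160257 carry the name A730055L17Rik on the array.

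Btbd9, A_52_P542860: tcagagtgatcgatcactcacattacctgt
Btbd9, A_51_P491437: actctgggactgcgatgatcgaagctacag
Btbd9, A_52_P488612: ggggctttgagaagtgttcggtctcaccca
Rab11b, A_52_P389478: acaggcgatgtggctagaagtttgattgga
Rab11b, A_52_P160257: acttttattatagaatcgttgggtttgtaa
Rab11b, A_51_P361580: aagcaatatcttcgtgttttgtatatacaa
Rab11b, A_52_P296670: accaatgtagaggaagcattcaagaacatc
Agpat1, A_52_P200465: caactgaaaataaagagaaagagagacgtg
Agpat1, A_51_P322612: ccatcgtcatgtcctcctatcaagacttct
Prr3, A_52_P391825: tttgtaatagtcgtaccaaataaaaacacc
Prr3, A_51_P498340: gctgtagagaccttcgggaccccatcttgc

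The next lines show further called probes described below, picked as examples after their values were seen.

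Dnah8, A_51_P326631: aagttcatctctatctgccgtgggcaccag
Apom, A_52_P150236: gaggaattccagtctctgacctcttgcttg
Sik1, A_51_P328725: ccctttgggggacagtaacatcatggtttt
5430410E06Rik, A_52_P614453: aaaggtcacttccgggaatacaatggcgac
BC023719, A_52_P564827: atagtccaagggataattggtccgaaccat

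Of the 294 members, 239 were tested in heart, 237 in kidney and 228 in both, and 46 in neither tissue. In heart 15 members and in kidney 25 passed the filter through 1 genotype only. In heart 8 members were called by limma (3.35% of those tested, against 0.47% of all probes). Of these 6 were higher in knockout hearts, where 0.405% of all probes were called higher, and 2 were lower, against 0.0649%. In kidney 5 members were called (2.11%, against 0.0969% of all probes), 3 of them higher (0.0349% of all probes) and 2 lower (0.062%). Btbd9, Rab11b and BC023719 were called in both tissues. Cryaa, Apom and BC023719 in heart and BC023719 in kidney passed the filter only through the genotype in which they read higher. With a signal well above background required on every array of the tissue, 4 of 224 members were called in heart (1.79%, against 0.113% of all probes). In kidney 5 of 212 were then called (2.36%, against 0.119%). For the effect averaged over both tissues 23 of 248 members were called (9.27%, against 0.766% of all probes), 15 higher and 8 lower, where 0.5% and 0.266% of all probes were. With the letter as a replicate block the heart count was 7 (2.93%, against 0.367% of all probes), with 6 of them among the 8. The kidney count was then 2 (0.844%, against 0.0155%) and the averaged count 10 (4.03%, against 0.27%), all among the 5 and the 23. The 10 were the most changed probes of Btbd9, Rab11b, Agpat1 and Prr3 and those of Dnah8, Sik1, Apom, 5430410E06Rik, BC023719 and NAP000023-001, and the block ended the other 13 averaged calls. Without knockout heart c, 34 members were called in heart (13.8%, against 12.1% of all probes) and 39 on average (15.4%, against 5.94%). The heart count was 5 without knockout heart a (2.09%, against 0.198%). It was 4 without wild type heart b (1.67%, against 0.107%) and 5 without c (2.09%, against 0.141%). The kidney count was 2 without knockout kidney b (0.844%, against 0.0385%). It was 1 without wild type kidney a (0.418%, against 0.00772%), b (0.418%, against 0.019%) or c (0.422%, against 0.0155%). The averaged count was 14 without wild type kidney a (5.62%, against 0.395%). The heart change differed from the kidney change in 2 of 248 members (0.806%, against 0.403% of all probes), Dnah8 and Apom. Without knockout heart c that count was 16 (6.32%, against 6.96%). Of the 23 averaged calls, Dnah8 was not tested in kidney. The other 22 had the same sign in both tissues, and in 20 of them the groups did not overlap in either tissue.

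Groups were apart in 77 of 239 members in heart (32.2%, against 22.8% of all probes) and in 80 of 237 in kidney (33.8%, against 21.5%). In 29 of 228 members (12.7%) they were apart in the same direction in both tissues, where 2.94% of all probes were. Of these 29, 18 were higher and 11 lower in knockouts, and 20 were called in the averaged effect. In 14 members (6.14%, against 0.331% of all probes) the groups were apart and the change exceeded 1 log2 unit in both tissues, with 10 higher and 4 lower. The rest of chromosome 17 had 19 of 970 probes called in the averaged effect (1.96%). The 47 probes left out by name had 15 of 46 called (32.6%). The median change of the members was 0.03 for the averaged effect, against -0.03 over all probes tested.

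**Figure D1:**
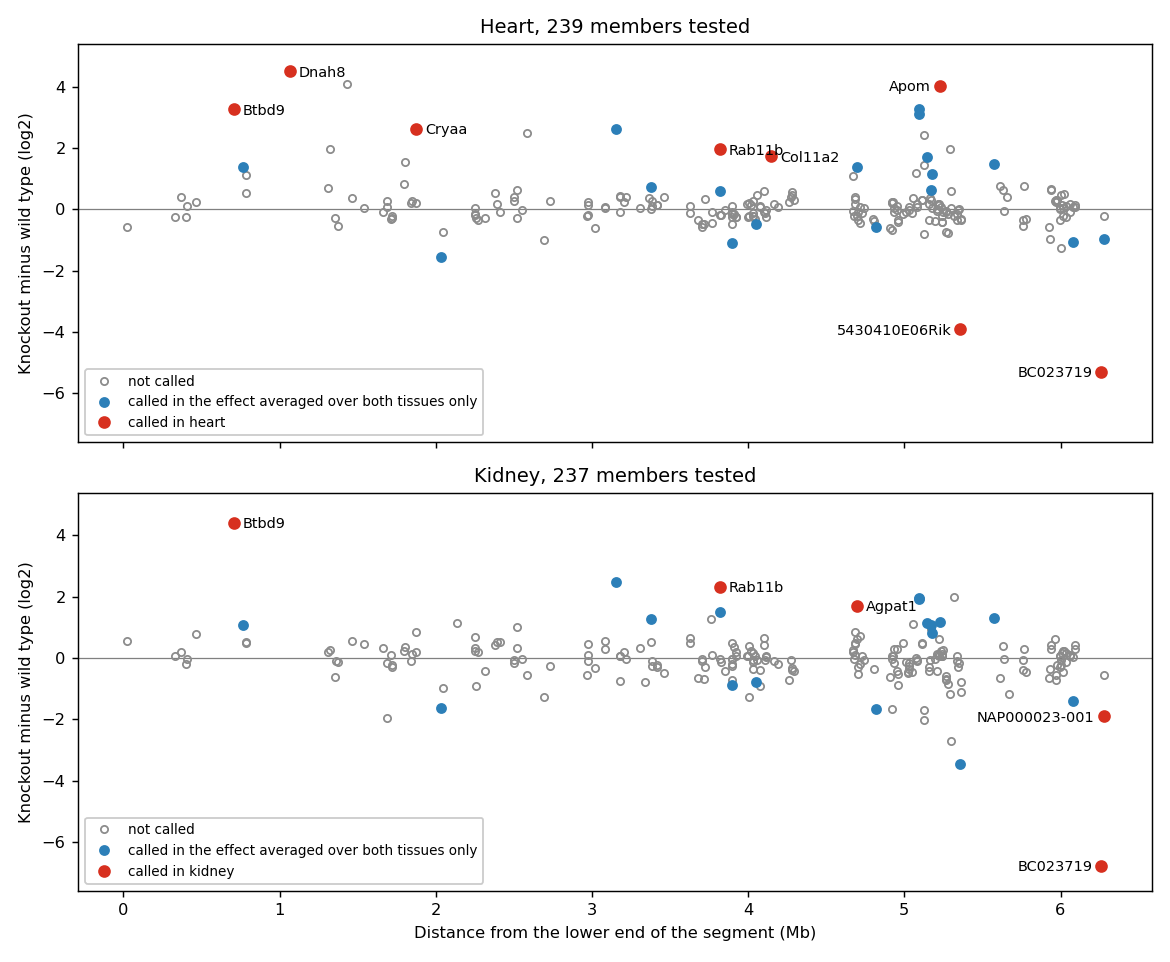
Change in log2 signal (knockout minus wild type, vertical axis) of each tested member against its distance from the lower end of the segment in Mb (horizontal axis), in heart above and kidney below. Each point is a probe, in red where called in that tissue, in blue where called only in the averaged effect and as an open circle otherwise. Btbd9, Rab11b and BC023719 are red in both tissues, and most open circles lie near 0.

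Calls were spread over the segment and did not form one block. The 23 averaged calls spanned 5.57 Mb, with gaps of at most 1.12 Mb between neighbours. By intervals of 1 Mb, 2 of 10 members were called in the first, 1 of 21 in the second, 1 of 24 in the third, 5 of 46 in the fourth, 3 of 55 in the fifth, 8 of 75 in the sixth and 3 of 17 in the last 0.3 Mb. In the first and last intervals fewer than 20 members were tested. In the second interval no member had groups apart in the same direction in both tissues, and in the sixth 13 of 66 did. A stretch of 133 kb from D17H6S56E-5 to Apom, chosen after its values were seen, held 6 calls among 22 members tested. That is 27.3%, against 9.27% of the whole segment and 0.766% of all probes. The stretch was set to begin and end at called genes, which raises its share. The calls came from 5 of 18 names. The averaged changes of the uncalled members between them ran from -0.82 to 0.64, so called and uncalled genes lay side by side. An average can hide opposite changes in the tissues. Sapcd1, named here for this after its values were seen, changed by 1.44 ± 0.79 and 2.42 ± 0.82 in heart on its 2 probes. In kidney these changed by -2.04 ± 0.25 and -1.69 ± 0.24 with groups apart, and neither was called (adjusted p of 0.063 and 0.0759 by limma).

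**Figure D2:**
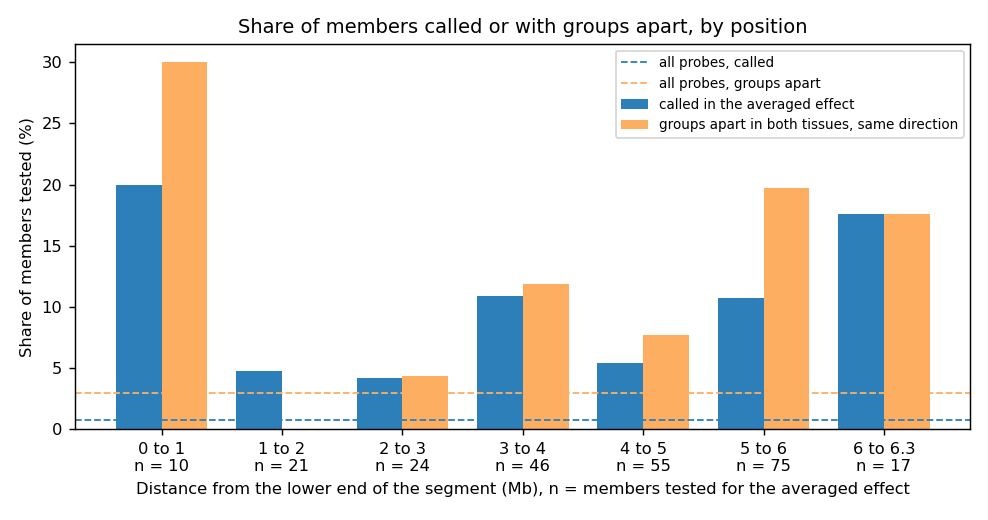
Share of members tested (vertical axis, %) by distance from the lower end of the segment (horizontal axis, Mb), in blue for members called in the averaged effect and in orange for members whose groups were apart in the same direction in both tissues. Dashed lines give the same shares over all probes, 0.766% and 2.94%, and n is the number of members tested for the averaged effect. The blue bars exceed the blue line in all 7 intervals, with the lowest at 4.17%.

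At the ends of the segment no tested neighbour was called. Just inside the lower end Mdga1 changed by -0.57 ± 0.29 in heart and 0.56 ± 0.35 in kidney (SE), and just outside it BC056481 by -0.61 ± 0.15 and 0.31 ± 0.15. Just inside the upper end NAP027924-1 changed by -0.21 ± 0.16 and -0.56 ± 0.16, and just outside it 2410017I17Rik by 0.01 ± 0.13 and -0.89 ± 0.53. These 4 probes had adjusted p from 0.154 to 0.995 in limma for the averaged effect.

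Among the members called in the averaged effect, Btbd9, which encodes a protein with a BTB domain, gave the largest rise. Its probe at chr17:28704838-28704897 read 0.63, -0.45 and 0.91 in knockout hearts and -3.21, -2.85 and -2.67 in wild type hearts. In knockout kidneys it read 1.36, 0.38 and 1.40, and in wild type kidneys -3.37, -3.62 and -3.11. All knockout arrays lay above all wild type arrays of the same tissue. The change was 3.27 ± 0.37 in heart (adjusted p of 0.0265 by limma, and 0.0571 with the letter as a replicate block) and 4.41 ± 0.31 in kidney (0.0168). The heart call ended without knockout heart a or any 1 wild type heart, and the kidney call without any 1 wild type kidney, but the averaged call was kept in all 22 other settings. The other 2 probes of Btbd9 did not follow. The averaged change was 0.04 ± 0.11 on A_52_P488612 and 0.50 ± 0.16 on A_51_P491437, against 3.84 ± 0.26 on the first. In kidney A_51_P491437 had groups apart, at -1.03, -0.95 and -0.72 in knockouts and -1.76, -2.05 and -1.23 in wild types, but was not called (adjusted p of 0.262).

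Rab11b, a small GTPase of recycling endosomes, rose on 2 of the 4 probes under its updated name. These 2 carry the name A730055L17Rik on the array and were placed under Rab11b by the update of names. The 2 probes named Rab11b on the array were not called. The probe at chr17:31817782-31817841 read -1.42, -1.21 and -1.47 in knockout hearts and -3.36, -3.19 and -3.43 in wild type hearts. In kidney it read -2.09, -2.16 and -2.15 in knockouts and -4.80, -4.29 and -4.31 in wild types. The groups were apart in both tissues and changed by 1.96 ± 0.14 in heart (adjusted p of 0.00549 by limma) and 2.33 ± 0.19 in kidney (0.0206). A_52_P160257 was not above background in any wild type kidney, where knockouts were at least 2.24-fold higher, and its averaged change was 1.05 ± 0.12 (adjusted p of 0.0029). A_51_P361580 and A_52_P296670, at higher coordinates, changed by -0.11 ± 0.14 and -0.15 ± 0.10 on average and were not called. The kidney call of A_52_P389478 ended with the letter as a replicate block (adjusted p of 0.107), within the shared slide, and without knockout kidney b or wild type kidney a, b or c, at changes of 2.17 to 2.42.

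Agpat1, an acyltransferase that makes phosphatidic acid for phospholipid and triglyceride synthesis, had a called probe and an uncalled one. The probe at chr17:32698785-32698844 read -0.12, -0.30 and 0.37 in knockout hearts and -1.49, -1.50 and -1.16 in wild type hearts. It read 0.36, 0.59 and 0.69 in knockout kidneys and -1.22, -1.13 and -1.10 in wild type kidneys. Groups were apart in both tissues, with a change of 1.70 ± 0.16 in kidney (3.25-fold, adjusted p of 0.0285 by limma), 1.37 ± 0.21 in heart (0.0687) and 1.53 ± 0.13 on average (0.000532). The other probe, A_51_P322612, changed by 0.61 ± 0.18 in kidney and -0.21 ± 0.22 in heart and was not called. The kidney call of A_52_P200465 was kept without knockout kidney a alone of the 6 kidneys, at changes of 1.63 to 1.79, whereas the averaged call was kept in all 23 other settings.

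Prr3, a proline-rich protein, fell on 1 of 2 probes. A_52_P391825 (chr17:34081827-34081886) read -6.13, -6.18 and -6.84 in knockout hearts and -4.99, -5.32 and -5.68 in wild type hearts. In kidney it read -5.19, -5.31 and -5.17 against -3.78, -3.55 and -4.13. Its averaged change was -1.23 ± 0.17 (adjusted p of 0.00812 by limma), and it turned to 0.13 with normexp background correction. It was above background on 2 of 3 knockout hearts. A_51_P498340 changed by 0.06 ± 0.12. Zfp955a, a zinc finger gene, had 1 of 3 probes called (1.0 ± 0.18, adjusted p of 0.0399), with the others at 0.27 ± 0.18 and -0.08 ± 0.16. It is named here for this contrast, after its values were seen.

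Over the segment, 57 names had 2 or more probes tested for the averaged effect, 130 probes in all. Among 7 names with a called probe, 6 also had an uncalled one, and only D17H6S56E-5 had all its tested probes called. The 6 include Rab11b, whose called probes carry another name on the array. The 9 uncalled probes beside a called one ran from -0.15 to 0.64, with 7 of them within 0.3 log2 units of 0. The range between probes of a name exceeded 1 log2 unit in 6 of the 57 (10.5%), against 3.11% of 6494 genes elsewhere on the array, and the median range was 0.16 against 0.19. The median GC content was the same in called and uncalled members. Called members read lower, with a median level over the 12 arrays of -2.58 against -0.25 in uncalled members and -1.38 in all probes tested.

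**Figure D3:**
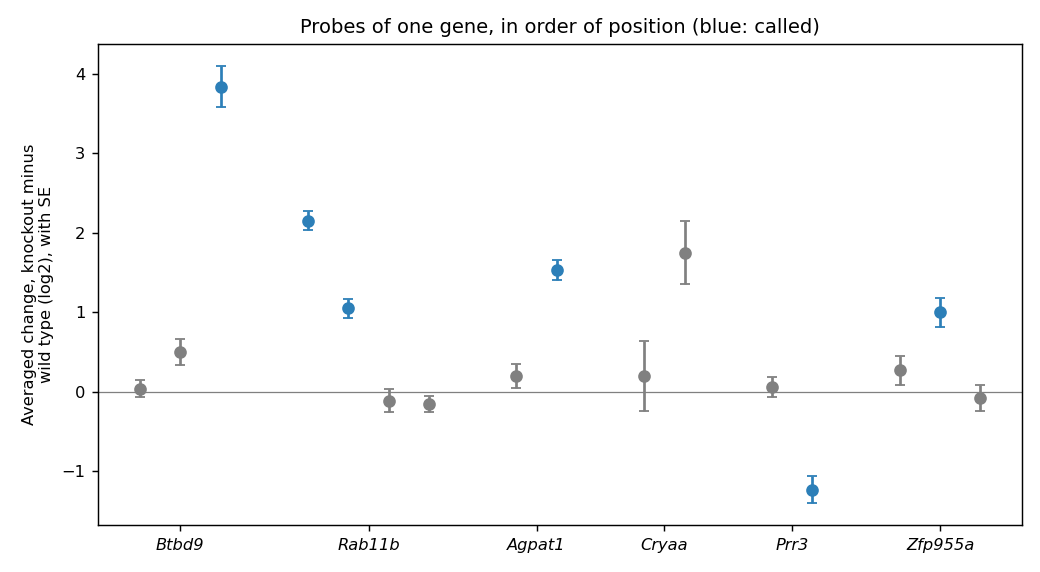
Change averaged over both tissues (vertical axis, log2, knockout minus wild type) of every tested probe of 6 genes (horizontal axis), in order of position within each gene. Points are limma estimates from 12 arrays, bars are SE, and blue marks an adjusted p under 0.05. In Btbd9 1 of 3 probes lies at 3.84 and the others at 0.04 and 0.50. In Rab11b 2 of 4 probes, named A730055L17Rik on the array, lie above 1 and 2 near 0.

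The lipid genes were led by Apom, which encodes apolipoprotein M, a carrier of sphingosine 1-phosphate on high-density lipoprotein that is made mainly in liver and kidney. Its only probe (chr17:33227251-33227310) read -3.75, -3.23 and -3.37 in knockout hearts, and -7.39, -7.50 and -7.54 in wild type hearts, where it was not well above background on any array. Knockout hearts were at least 9.47-fold higher (fitted change 4.03 ± 0.17, adjusted p of 0.00126 by limma). Knockout kidneys read 5.41, 5.26 and 5.50 and wild type kidneys 4.17, 4.57 and 3.92. The kidney groups were apart too, with a change of 1.17 ± 0.21 that was not called (adjusted p of 0.12). The fitted heart change exceeded the kidney change by 2.85 ± 0.27 (adjusted p of 0.00377), a size that rests on wild type hearts below background and so is not exact. The liver gene list, given above, was likewise higher in all 3 knockout hearts, and its part in the heart signal of Apom was not tested. In kidney the median of the liver genes was -0.34, -1.09 and -2.97 in knockouts and -2.05, -1.92 and -2.40 in wild types. With normexp the heart change of Apom was 1.0 and not called, and its excess over the kidney change was 0.11. Of the 9 probes of 7 lipid genes tested, 1 was called higher in heart (Apom, against 0.405% of all probes) and 1 in kidney (Agpat1, 0.0349%). On average 2 were called higher (0.5%). None was called lower, and the list's median averaged change was -0.06 beside -0.03 over all probes.

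The dynein and cilia genes held Dnah8, a heavy chain of the outer dynein arms that move cilia and sperm tails. The probe at chr17:29067432-29067491 read 0.03, -0.34 and -0.30 in knockout hearts and -4.55, -4.78 and -4.80 in wild type hearts, above background on all 6. The change was 4.51 ± 0.16 (22.8-fold, adjusted p of 0.0011 by limma). In kidney it was not above background on any array, so no fold is given there, and the fitted excess of its heart change, 3.99 ± 0.30 (adjusted p of 0.00105), is set against background signal. The median of the lung and cilia genes was 0.49, -5.39 and -6.90 in knockout hearts and -5.96, -7.73 and -7.39 in wild type hearts, and its part in the Dnah8 result was not tested. The other 2 probes of Dnah8 were not above background on any of the 12 arrays. The list named for dynein and cilia genes also held Rsph1 and Btbd9. Btbd9, the BTB domain gene described above, gave 3 of the 5 probes tested on average and the only kidney call. Rsph1 changed by 0.45 ± 0.44 on average and was not called. Of 5 probes of the list tested in heart 2 rose, those of Dnah8 and Btbd9 (0.405% of all probes). So did 1 of 4 in kidney (0.0349%) and 2 of 5 on average (0.5%). The median averaged change of 0.50 was that of a Btbd9 probe, so these counts do not speak for cilia genes alone.

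**Figure D4:**
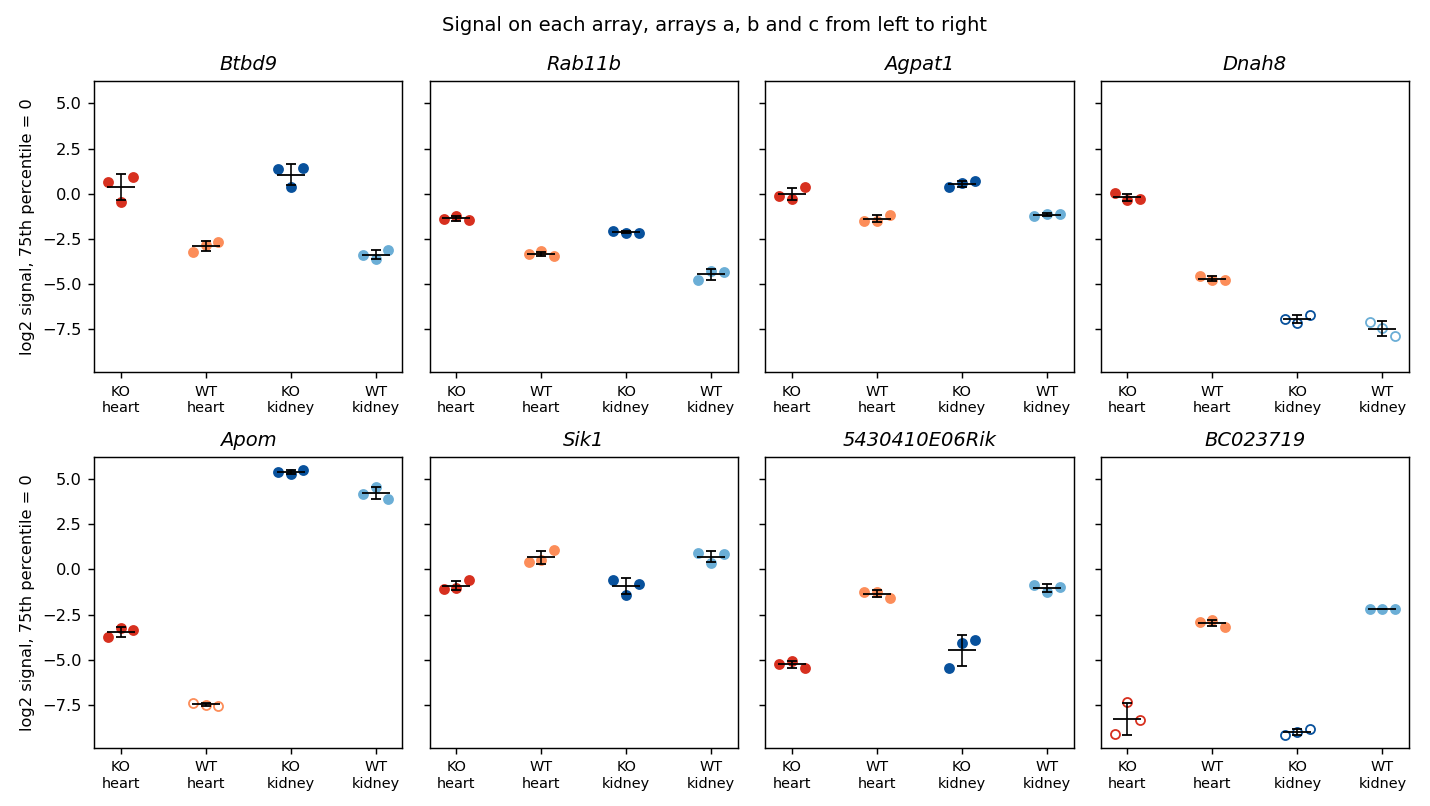
Log2 signal with the 75th percentile of each array at 0 (vertical axis) of 8 probes, each in its own panel, by group (horizontal axis), with arrays a, b and c from left to right. Black marks are the mean and SD of 3 arrays, and open points are groups in which the probe was above background on no array. Knockout and wild type arrays are apart in both tissues in 7 panels, and in Dnah8 in heart only.

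Of the immune cell genes no probe was called by limma in either tissue or on average, with 5 of 13 in heart and 5 of 10 in kidney at an unadjusted p under 0.05. Over all members tested these were 58 of 239 in heart and 65 of 237 in kidney. The share over all probes was not computed. Lta, the cytokine lymphotoxin alpha, read -7.59, -6.67 and -6.78 in knockout kidneys, not above background on any array, and -4.52, -3.89 and -4.47 in wild type kidneys. Wild types were at least 5.99-fold higher, and limma's adjusted p of 0.0505 missed the threshold. It passed in 7 other settings, one of which left out knockout kidney a, while normexp background correction turned its direction, to a change of 0.31. In heart Lta read -3.13 and -2.60 on knockout hearts a and b and -5.15 on c, on both sides of the wild types at -3.94, -4.48 and -4.24, with a change of 0.59 ± 0.63. Ubash3a, a regulator of T cell receptor signalling, read -2.34, -1.54 and -4.71 in knockout hearts and was not above background in wild type hearts, where it was at least 13.9-fold lower (adjusted p of 0.118). On both genes knockout hearts a and b stood above c, as did the thymus and lymphocyte genes, whose part was not tested. The list's median change was -0.06 in heart and -0.68 in kidney, beside -0.08 and -0.03 over all probes tested.

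Of the complement genes C4b, the fourth component, fell on average. It read -0.78, -0.12 and 0.26 in knockout kidneys and 1.51, 1.62 and 1.23 in wild type kidneys, with groups apart. In heart it read 2.92, 3.30 and 3.79 against 3.85, 3.76 and 4.07, where groups overlapped. Its averaged change was -1.11 ± 0.20 (adjusted p of 0.035 by limma), and the call was kept in 9 of 23 other settings, of which 4 were among the 12 that left out an array. The 2 probes of C2, the second component of complement, changed by -0.64 ± 0.17 and -0.45 ± 0.16 on average and were not called. All 4 complement probes tested had a lower average, 1 of them called (0.266% of all probes were called lower), and the list's median was -0.54. C4b has a near-identical neighbour, C4a, whose own probe was not above background on any array, and the C4b signal may hold both. The median of 10 macrophage genes was -0.94, -0.76 and -0.74 in knockout kidneys and 0.07, 0.25 and -0.18 in wild type kidneys, and its part in these values was not tested.

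Of the 7 probes for peptide loading and the immunoproteasome none was called by limma, with 1 in heart and 3 in kidney at an unadjusted p under 0.05. Over all members tested, 58 of 239 in heart and 65 of 237 in kidney were at such a p. Psmb9, a subunit of the immunoproteasome, read 0.79, 1.13 and 0.85 in knockout kidneys and 1.48, 1.89 and 1.60 in wild type kidneys, with groups apart (-0.73 ± 0.19, adjusted p of 0.205). In heart it changed by 0.25 ± 0.22. Tapbp, which encodes tapasin, changed by -1.27 ± 1.12 in kidney on A_51_P304500, where knockout kidney a alone read -0.33 and the other 5 kidneys 3.63 to 4.10. Its other probe changed by 0.39 ± 0.39.

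The Ly6 family, small proteins anchored to the cell surface, had 2 of 6 tested probes called higher on average, where 0.5% of all probes were, and none lower. Ly6g6e changed by 0.99 ± 0.16 on average (adjusted p of 0.0255 by limma), with 1.15 ± 0.26 in heart and 0.82 ± 0.18 in kidney and groups apart in both. Ly6g6d changed by 0.86 ± 0.15 on A_52_P12590 (0.0338) and 0.64 ± 0.16 on A_51_P404246 (0.123). These 2 probes share 22 positions. The list's median averaged change was 0.39. The Ly6g6d call ended in 14 of 22 other settings, 8 of the 12 left-out arrays among them, and the Ly6g6e call in 9 of 23, with wild type hearts a and c and wild type kidney a among them. Close to them, Msh5, a MutS homolog of meiotic recombination, was called higher on average on 1 probe (1.43 ± 0.24, adjusted p of 0.0286). That probe was not above background in wild type hearts, where knockouts were at least 2.43-fold higher. The call was kept in 9 of 22 other settings and 6 of the 12 left-out arrays, and ended with the letter as a replicate block (0.0652). The other 2 probes of Msh5 were not tested.

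D17H6S56E-5 rose on both of its probes. A_51_P134468 read 0.82, 1.28 and -1.18 in knockout hearts and -2.88, -2.97 and -3.05 in wild type hearts. It read -1.36, -2.46 and -2.48 in knockout kidneys and -4.28, -3.90 and -3.95 in wild type kidneys. Groups were apart in both tissues, with averaged changes of 2.61 ± 0.38 and 2.54 ± 0.38 on the 2 probes (adjusted p of 0.0109 and 0.0146 by limma). With the letter as a replicate block both stood at 0.0598. Knockout hearts a and b and knockout kidney a, the highest arrays of their groups, are those with Xist signal. With only the arrays without it, both probes were still called. The thymus and lymphocyte genes were also highest on knockout hearts a and b, and their part was not tested.

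Sik1, the salt-inducible kinase 1, fell on average. It read -1.06, -1.03 and -0.58 in knockout hearts and 0.44, 0.50 and 1.06 in wild type hearts. In kidney it read -0.58, -1.43 and -0.79 against 0.92, 0.34 and 0.84. The change was -1.56 ± 0.23 in heart and -1.63 ± 0.28 in kidney, with groups apart in each, and only the average was called (-1.59 ± 0.19, adjusted p of 0.00383 by limma). Ager, a receptor of advanced glycation end products that is abundant in lung, read 1.80 on knockout heart a and -6.76 and -6.45 on b and c, and no average was called. Lung and cilia genes were high on that array too, and their part was not tested. Of 11 kinase and signalling probes tested 1 was called lower on average, where 0.266% of all probes were, and none higher, with a median of 0.12.

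The strongest falls were on probes of poorly described transcripts. BC023719, a cDNA noted in the files as having an apparent retained intron (chr17:34261405-34261464), was seen in wild types only. It read -2.90, -2.82 and -3.17 in wild type hearts and -2.21, -2.19 and -2.19 in wild type kidneys. It was not well above background on any of the 6 knockout arrays, which read -9.10 to -7.36. Wild types were at least 13.9-fold higher in heart (fitted change -5.30 ± 0.42, adjusted p of 0.00738 by limma) and at least 27.4-fold in kidney (-6.79 ± 0.16, 4.71e-05). 5430410E06Rik (chr17:33358004-33358063), an unclassified cDNA, read -5.26, -5.07 and -5.46 in knockout hearts and -1.23, -1.24 and -1.56 in wild type hearts. In kidney it read -5.46, -4.06 and -3.93 against -0.86, -1.26 and -0.95. Groups were far apart in both tissues, and the change was -3.92 ± 0.17 in heart (adjusted p of 0.00126) and -3.46 ± 0.41 in kidney (0.0555). NAP000023-001, with no description in the files, fell by 1.90 in kidney (SE 0.20, adjusted p of 0.0382) and by 1.43 on average (SE 0.14, 0.000969). Its kidney call ended without any 1 of the 6 kidneys. The heart call of BC023719 ended without wild type heart b or c and with Xist as a covariate. With normexp its heart, kidney and averaged calls all ended. Over all settings the smallest falls of BC023719 were -1.27 in heart and -0.86 in kidney.

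Other unnamed or renamed members rose. Cyp4f41-ps, a cytochrome P450 pseudogene kept in by its name in the files, read -5.36, -5.28 and -5.88 in knockout hearts and -4.43, -4.44 and -4.76 in knockout kidneys. It was not above background on any wild type array, so knockouts were at least 2.27-fold higher in heart and at least 4.09-fold in kidney (averaged adjusted p of 0.00458 by limma). The averaged call ended with the letter as a replicate block (0.0553), with only the arrays without Xist signal and with Xist as a covariate. 0710001D07Rik, an unclassified cDNA next to Btbd9, changed by 1.23 ± 0.19 on average (0.0147), with groups apart in both tissues. ENSMUST00000056774, described in the files as similar to a class I antigen, changed by 1.38 ± 0.24 (0.0313), a call kept in 11 of 23 other settings, in 4 of the 12 left-out arrays, and not with the letter as a replicate block (0.112). LOC630499 and TC1483835 were called lower on average, by changes of -0.64 ± 0.12 and -0.98 ± 0.18, and are named here because they complete the 23.

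**Figure D5:**
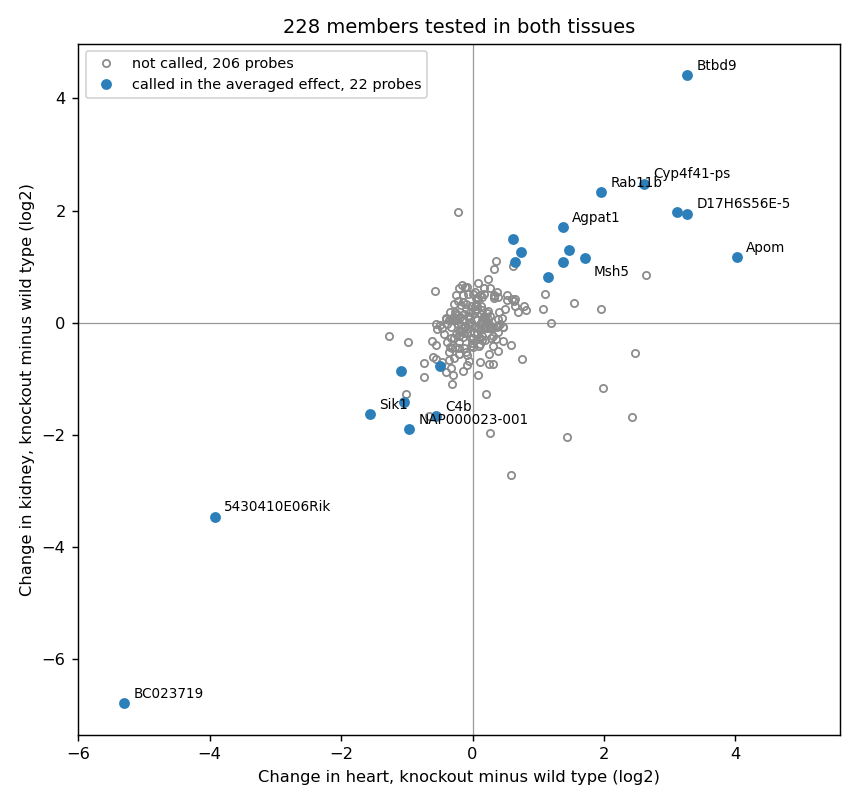
Change in kidney (vertical axis, log2) against change in heart (horizontal axis, log2), knockout minus wild type, of the 228 members tested in both tissues, with members called in the averaged effect in blue. The 22 blue points have the same sign in both tissues, from BC023719 at -5.30 and -6.79 to Btbd9 at 3.27 and 4.41.

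Cryaa and Col11a2 were called in heart and neither in kidney nor on average. Cryaa, the lens protein alpha A-crystallin and a small heat shock protein, read -4.36, -4.81 and -4.71 in knockout hearts on A_51_P305950 and was not above background in wild type hearts. Knockout hearts were at least 4.18-fold higher (adjusted p of 0.0225 by limma). In kidney it read -3.33, -1.54 and -0.65 against -2.64, -2.29 and -3.13, where groups overlapped, and its other probe changed by 0.22 ± 0.52 in heart. Col11a2 is a chain of the cartilage collagen XI. On A_51_P264666 it read -1.95, -2.20 and -2.70 in knockout hearts and -4.07, -4.23 and -3.74 in wild type hearts. Groups were apart, with a change of 1.73 ± 0.24 (adjusted p of 0.0485, and 0.118 with the letter as a replicate block). This probe was above background on 1 of 6 kidneys. The other probe of Col11a2, A_52_P563285, was tested in neither tissue. It read -6.89, -6.78 and -6.45 in knockout hearts and -7.48, -6.61 and -5.91 in wild type hearts, where groups overlapped. The heart call was kept in 6 of 15 other settings for Cryaa, where it ended without knockout heart a or b or wild type heart b or c. For Col11a2 it was kept in 4 of 17 and, of the 6 hearts, without knockout heart c alone. Of 8 collagen and matrix probes tested in heart Col11a2 alone was called higher, where 0.405% of all probes were, and the list's median was -0.22. Vwa7 changed by -0.80 ± 0.30 there and was not called.

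The other groups of genes in the segment gave few calls. Of 25 probes of 14 genes for RNA processing 1 was called lower on average (Prr3), where 0.266% of all probes were. None was called higher, and the median was 0.06. The 4 probes of Rrp1b, a nucleolar protein, ran from -0.61 to 0.26. No probe was called by limma in heart, in kidney or on average in the next 6 lists, given with the number at an unadjusted p under 0.05 on average. Over all members tested that number was 78 of 248, and the share over all probes was not computed. The 6 lists were 10 chromatin probes (3), 8 of Notch, retinoid and homeobox regulators (2), 8 of chaperone-like scaffold proteins (1), 7 of channels and carriers (0), 13 of metabolic enzymes (7) and 2 of trefoil factors (1). In the first of these Ring1, a Polycomb ubiquitin ligase, changed by 0.51 ± 0.11 and 0.28 ± 0.11 on its 2 probes. Pknox1, a homeobox gene, changed by 0.52 ± 0.13 and Notch3 by -0.35 ± 0.12. Hspa1l changed by 1.19 ± 0.27 in heart with groups apart (adjusted p of 0.162) and by 0.00 in kidney, and the 4 probes of Bag6 ran from -0.16 to 0.16 on average.

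Among the metabolic enzymes Glo1, the glyoxalase that detoxifies methylglyoxal, was higher on both probes, with averaged changes of 0.52 ± 0.16 and 0.81 ± 0.16 (adjusted p of 0.175 and 0.0539 by limma). Cbs, the first enzyme of transsulfuration, read -4.13, -5.40 and -4.93 in knockout hearts and -6.61, -6.16 and -6.30 in wild type hearts (1.54 ± 0.33, adjusted p of 0.142). Tff3, a trefoil peptide of mucous surfaces, read -3.76 and -2.38 on knockout hearts a and b and -5.70 on c, within the wild type range of -6.20 to -5.58. Tff1 changed by -0.46 ± 0.41 on average. Slc44a4 read -2.87 on knockout heart a on A_52_P517762 and was not above background on the other 5 hearts, and Slc37a1 changed by 0.24 ± 0.13 on average. The 2 probes of Btnl1, a butyrophilin-like gene, were tested in neither tissue.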

How the data were processed

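The deposited scanner files hold the intensity of each spot on 12 one-colour (Cy3) arrays, written per the file headers by version 9.5.3.1 of Agilent's Feature Extraction software, where the submitters' processing notes name 9.1. The processed signal is background-subtracted, with no scaling between arrays. The authors' deposited table holds log2 values centred per probe within a tissue. Its columns matched the opposite genotype's array with that letter and tissue (correlation of 0.999824 or more), and it served as an alternative on that match. Spots marked as outliers were left out, log2 signals were shifted to a 75th percentile of 0 (464 to 940 units before scaling), and spots of a probe were averaged. Names were updated through RefSeq gene names for 249 members (199 by accession, 30 by symbol, 20 by synonym), and 45 kept the name in the files. Positions are those of build mm7 in the files, and exon annotation of that build was not used here.

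Knockout and wild type were compared within a tissue using limma (version 3.58.1, under R 4.3.3), and over all 12 arrays for the averaged effect and the heart change minus the kidney change. The test was checked on simulated data. Where a group was not above background on any array, "at least" folds set the bright group's mean against, per array, the higher of the probe's own value and the lowest signal well above background. In heart, arrays of the same letter were somewhat more alike across genotypes. Deviations from group means correlated at 0.365, 0.151 and 0.255 for a, b and c, and at -0.265 to 0.0718 between letters. Such deviations sum to 0 within a group, which lowers the values between letters, so pairing is not certain. In kidney the same letters were not more alike (0.146, 0.0177 and -0.182). The series names 3 mice per genotype but ties no array to a mouse, so p-values measure the spread between these samples, and 3 arrays a group limit the precision. The fits over all 12 arrays treated them as independent, which does not hold where a heart and a kidney share a mouse. Knockout hearts and knockout kidneys differed in how many arrays gave Xist signal. As labelled, they therefore did not all come from the same 3 mice. An exact two-sided permutation test of 3 against 3 cannot go below 0.1, so single probes rest on limma.

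The text names every gene with a called probe, at most 20 per comparison, genes that differed between tissues, Dnah8, Apom, Agpat1, Lta and Col11a2, the 2 members of each role list with the largest averaged change, and the tested probes nearest the ends. A gene that this rule names is not reported here. Members and lists were chosen with earlier results of these data known. Alternatives were normexp (offset 50), median and quantile scaling, other filters, 1 probe per gene, letter and slide blocks, the shared slide alone, Xist as a covariate or its arrays left out, and each array left out in turn.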

Additional observations from a re-analysis of the deposited data

Results flagged for a closer look

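Dnah8 and Apom are given here because their change differed between heart and kidney by limma's test of the difference over 27800 probes, of which 0.403% were called. For Dnah8 the heart change exceeded the kidney change by 3.99 ± 0.30 (SE, adjusted p of 0.00105). Its probe was above background on all 6 hearts and on no kidney, so the kidney value is one of background signal. For Apom the heart change exceeded the kidney change by 2.85 ± 0.27 (SE, adjusted p of 0.00377). It was higher in 3 of 3 knockouts in each tissue and not well above background in wild type hearts, so the heart change is a bound of at least 9.47-fold and the size of this difference is not exact. With normexp neither difference was called. It was 2.01 for Dnah8 (adjusted p of 0.733 by limma) and 0.11 for Apom (0.887). Groups of 3 arrays were not tested for single outlying arrays.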

How the results depend on the processing

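Counts of called members moved with the setting. Paired percentages are the share called of members tested and of all probes. In heart 8 members were called (3.35%, 0.47%). The count was 5 with 1 probe per gene (2.98%, 0.664%), 13 with all 12 arrays in one fit (5.24%, 0.773%) and 4 with a filter on every array (1.79%, 0.113%). It was 5 with no filter (1.7%, 0.155%), 4 with normexp (1.67%, 0.103%) and 4 to 34 when 1 array was left out. The highest came without knockout heart c, where 13.8% of members and 12.1% of all probes were called. In kidney 5 were called (2.11%, 0.0969%). The count was 11 with all 12 arrays in one fit (4.44%, 0.291%), 11 with median scaling (4.64%, 0.465%) and 2 with no filter (0.68%, 0.0146%). It was 13 with slide as a random block (5.49%, 0.504%) and 3 within the shared slide (1.26%, 0.114%). With normexp limma called 0 members and 0 of all probes (23 members at an unadjusted p under 0.05). Leaving out 1 kidney gave 1 to 7, with 1 for each wild type kidney. On average 23 were called (9.27%, 0.766%). The count was 15 with no filter (5.1%, 0.262%), 3 with normexp (1.21%, 0.0612%) and 15 with slide as a random block (6.05%, 0.338%). It was 14 to 39 when 1 array was left out. For the difference between tissues 2 were called (0.806%, 0.403%), and 2 to 16 when 1 array was left out. With normexp limma called 0 members and 0 of all probes (13 members at an unadjusted p under 0.05). With a filter on every array it called 0 (0.24% of all probes), with 26 members at such a p. That filter left Dnah8 and Apom untested, so their calls could not be kept there.

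With the letter as a replicate block the counts were 7 in heart, 2 in kidney, 10 on average and 2 for the difference. For the difference that was 0.806%, against 0.255% of all probes, and the other shares are given above. The averaged change of Prr3 on A_52_P391825 reversed to 0.13 with normexp. Median scaling moved the median change of all probes in heart from -0.08 to -0.24. Over the named probes, 4358 of 4818 values under other settings kept their direction and side of the threshold or stayed within the spread, 221 moved, 151 lost the threshold, 87 gained it and 1 called value reversed. Among uncalled values, Lta in kidney turned from -2.72 to 0.31 with normexp. The authors' deposited table gave 8, 5, 23 and 2 calls. The causes of these shifts were not tested. Probes below background in a group have only bounds.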
